A study of Homo sapiens with 10 samples.

Results

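The intergenic Rb regions described here are stretches of the human genome where Rb was called away from annotated genes. They were found by merging the Rb peaks of 8 libraries that overlapped by at least 1 bp, on 23 chromosomes (1 to 22 and X), and keeping the merged regions that were present in at least 2 of the 8 peak lists and that overlapped neither a promoter (2000 bp upstream to 500 bp downstream of any GENCODE v44 transcript start) nor a GENCODE v44 gene body. The rule gave 691 intergenic regions of 14572 merged regions present in at least 2 lists (4.74%), beside 994 regions in gene bodies and 12887 at promoters. The intergenic regions had a median width of 629 bp (range 209 to 2377 bp) and covered 483 kb in all.

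Rb was profiled by CUT&RUN, which uses an antibody to tether a nuclease to chromatin and sequences the DNA fragments that it releases. Both cell lines, OVCAR-3 and Kuramochi, are established from high-grade serous ovarian cancer and are labelled WT in genotype. Each line received 300 nM INX-315, an inhibitor of CDK2, or the solvent DMSO for 2 days, with 2 Rb libraries per line and treatment and 1 IgG2a control library per line from DMSO-treated cells. Results from these lines describe cells in culture, and with 2 libraries per group the p-values measure only the spread between these libraries.

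Rb, the product of RB1, restrains entry into S phase by binding E2F transcription factors at the promoters of cell cycle genes. Phosphorylation by cyclin-dependent kinases, CDK2 with its partner cyclin E among them, releases Rb from E2F. Genome regions that lie outside promoters can hold enhancers, insulator sites bound by CTCF, unannotated transcription starts and small non-coding genes such as tRNA genes, which carry their own promoter inside the gene.

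Some regions show the sequence under the Rb summits. Each line gives 200 bp of the plus strand of hg38 centred on the strongest summit, named by the nearest protein-coding gene. In the first 3, which are among the regions with an E2F string called in the most libraries, capitals mark the string, TTTGGCGC, TTTCCCGC, TTTCGCGC or TTTGCCGC on either strand. They lie at chr12:54217191-54217390, chr12:57865160-57865359 and chr7:20777898-20778097.
SMUG1 region: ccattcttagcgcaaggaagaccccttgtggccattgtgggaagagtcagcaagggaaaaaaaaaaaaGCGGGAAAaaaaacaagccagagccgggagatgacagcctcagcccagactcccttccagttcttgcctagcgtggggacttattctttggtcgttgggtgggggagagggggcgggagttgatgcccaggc
CTDSP2 region: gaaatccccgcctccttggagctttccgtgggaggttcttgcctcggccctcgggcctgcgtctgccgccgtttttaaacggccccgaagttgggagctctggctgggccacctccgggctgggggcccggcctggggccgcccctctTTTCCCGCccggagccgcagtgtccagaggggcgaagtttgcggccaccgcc
SP8 region: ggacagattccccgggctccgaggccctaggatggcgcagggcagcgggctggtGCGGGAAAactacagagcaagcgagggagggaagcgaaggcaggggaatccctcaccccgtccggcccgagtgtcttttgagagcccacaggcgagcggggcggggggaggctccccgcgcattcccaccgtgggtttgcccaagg
In the following 4, capitals mark CpG dinucleotides, to show how their number varied from 30 in the PTMA region (chr2:231662323-231662522) to 15 in the CCNE1 region (chr19:29844809-29845008), 8 in the DLX5 region (chr7:97027575-97027774) and 0 in 1 of the regions lost in OVCAR-3, nearest to ZNF518B (chr4:10298156-10298355).
PTMA region: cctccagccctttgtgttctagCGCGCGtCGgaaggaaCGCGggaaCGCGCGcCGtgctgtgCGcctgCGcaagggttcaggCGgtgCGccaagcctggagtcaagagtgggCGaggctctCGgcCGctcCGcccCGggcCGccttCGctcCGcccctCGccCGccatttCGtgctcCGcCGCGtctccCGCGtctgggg
CCNE1 region: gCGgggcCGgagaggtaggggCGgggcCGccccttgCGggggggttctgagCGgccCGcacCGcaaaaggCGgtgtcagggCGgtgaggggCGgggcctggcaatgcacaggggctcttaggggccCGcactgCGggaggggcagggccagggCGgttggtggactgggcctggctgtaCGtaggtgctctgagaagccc
DLX5 region: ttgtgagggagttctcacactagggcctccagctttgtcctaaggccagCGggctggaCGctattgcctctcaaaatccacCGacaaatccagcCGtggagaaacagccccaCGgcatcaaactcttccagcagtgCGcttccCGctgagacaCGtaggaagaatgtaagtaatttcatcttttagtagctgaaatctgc
ZNF518B region: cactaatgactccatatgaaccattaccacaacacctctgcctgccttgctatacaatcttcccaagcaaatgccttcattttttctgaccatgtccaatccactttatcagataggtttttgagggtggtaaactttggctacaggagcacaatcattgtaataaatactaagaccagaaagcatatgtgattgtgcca
In the last, chr17:8138824-8139023, capitals mark the serine tRNA gene TRS-CGA1-1 of RefSeq, on which the summit lay.
PER1 region: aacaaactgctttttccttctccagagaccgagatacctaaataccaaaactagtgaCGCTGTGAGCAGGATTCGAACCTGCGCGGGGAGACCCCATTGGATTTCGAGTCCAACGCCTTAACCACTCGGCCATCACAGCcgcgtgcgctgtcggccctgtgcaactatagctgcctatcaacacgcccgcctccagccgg

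The depth of a peak list was read from the authors' fold enrichment and p-value. From these the whole number of fragments at a summit and the local background could be recovered. This held for at least 98.6% of peaks per library, leaving aside those with p-values too small to fit. The genome-wide mean background was 0.216 to 0.501 fragments per base in the Rb libraries, and the lists held 5221 to 17281 peaks. In the Rb libraries the median intergenic region had 7 to 13 fragments at its summit, so that single weak calls rest on few fragments. None of the 691 intergenic regions overlapped an IgG2a peak, against 4 of all 14572 regions, but the IgG2a lists held only 25 and 12 peaks on these chromosomes and IgG2a was the control in the calling of the Rb peaks, so that little overlap was possible.

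More of the intergenic regions were called in the INX-315 libraries than in the DMSO libraries of both lines. In OVCAR-3, 126 and 190 of the 691 regions had a peak in the DMSO libraries, and 435 and 592 in the INX-315 libraries. In Kuramochi, the numbers were 87 and 196 with DMSO, and 447 and 387 with INX-315. The groups did not overlap in either line, and the means were 3.25-fold higher with INX-315 in OVCAR-3 (158 ± 45.3 to 513.5 ± 111, SD, n = 2) and 2.95-fold in Kuramochi (141.5 ± 77.1 to 417 ± 42.4, SD, n = 2). The mean difference over the lines was 1.69 on the log2 scale. These numbers are a description without a test, because the same calls chose the regions: 363 of the 691 were called in INX-315 libraries alone and 3 in DMSO libraries alone. Mean background was 0.307 and 0.421 fragments per base with INX-315 against 0.495 and 0.501 with DMSO in OVCAR-3, and 0.405 and 0.216 against 0.445 and 0.380 in Kuramochi, where the groups overlapped. The part of depth in the numbers called was not tested.

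**Figure D1:**
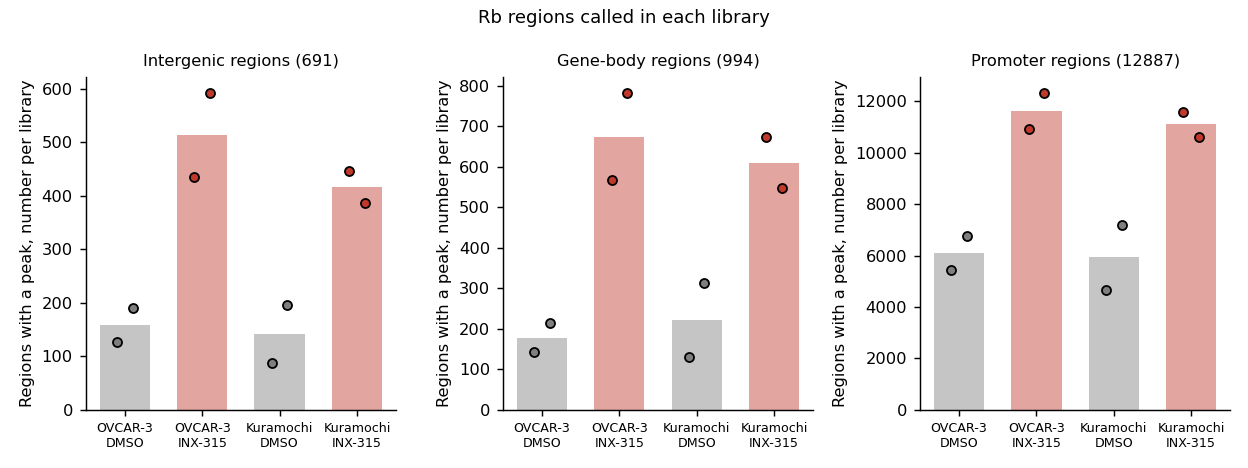
Number of regions with a peak in each Rb library (points) and the mean of the 2 libraries of a group (bars), for intergenic, gene-body and promoter regions. All INX-315 points lie above all DMSO points of the same line in each panel, and the relative increase is larger for intergenic regions (3.25-fold and 2.95-fold) than for promoter regions (1.90-fold and 1.87-fold).

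Gene-body and promoter regions were called more often with INX-315 as well. For gene-body regions the means differed 3.79-fold in OVCAR-3 and 2.76-fold in Kuramochi, and for promoter regions 1.90-fold and 1.87-fold. Intergenic regions made up 2.21% and 2.65% of the regions called in the DMSO libraries of OVCAR-3 and 3.65% and 4.32% with INX-315, and 1.78% and 2.55% against 3.52% and 3.35% in Kuramochi. That share was higher by 1.41 percentage points over the lines. Per gene-body region called, the intergenic number changed by -0.07 on the log2 scale (-0.22 in OVCAR-3 and 0.08 in Kuramochi). With each list restricted to its 5196 strongest peaks, the length of the shortest list, the direction turned: the number of intergenic regions called was lower with INX-315, with differences of -0.35 on the log2 scale in number and -0.45 percentage points in share. Between the lines the number differed by 0.27 on the log2 scale in favour of OVCAR-3, and by -0.03 without the first DMSO library of Kuramochi.

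Region by region, gains outnumbered losses in the full lists. A region was called gained in a line when it had a peak in both libraries with INX-315 and in none with DMSO, lost when the opposite was seen, and constant when it had a peak in all 4. In OVCAR-3, 241 of the 615 intergenic regions with a peak in the line were gained (39.2%), against 29.9% of all regions with a peak in the line, and 5 were lost (0.813%, against 0.0794%). Constant regions numbered 81 (13.2%, against 35.3%). In Kuramochi, 163 of 521 were gained (31.3%, against 25.9%), none was lost (against 0.0526%) and 74 were constant (14.2%, against 33.9%). The shares gained were close to those of gene-body regions, 40.8% in OVCAR-3 among them, and the intergenic regions stood below all regions mainly in the share that was constant. In both lines at once 54 regions were gained, or 7.81% of the 691 against 8.89% of all regions. The counts of gains rested on the length of the lists: with each list at its 5196 strongest peaks they were 7 in OVCAR-3, 6 in Kuramochi and 0 shared. Over regions in at least 3 libraries OVCAR-3 had 130. That rule removes its 111 gains with no peak in Kuramochi, since these lie in 2 libraries. Leaving out 1 library can only keep or raise the counts of gains, since fewer libraries must meet the rule. The OVCAR-3 gains numbered 373 without the first INX-315 library, the Kuramochi gains 262 without the second, and the shared gains 88 and 82.

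**Figure D2:**
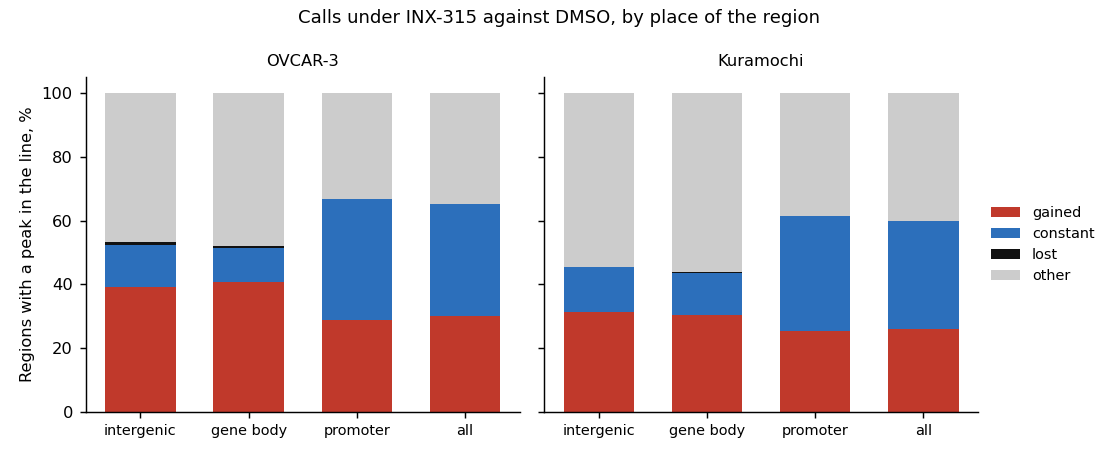
Share of the regions with a peak in a line (y axis, %) that were gained, constant, lost or in another pattern under INX-315, by place of the region. Intergenic regions have a gained share of 39.2% and 31.3% and a constant share of 13.2% and 14.2% in OVCAR-3 and Kuramochi, while 35.3% and 33.9% of all regions were constant.

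The lines shared 445 of the 691 regions (64.4%), against 60.4% of gene-body, 89.5% of promoter and 86.4% of all regions, while 170 had a peak in OVCAR-3 alone and 76 in Kuramochi alone. INX-315 libraries alone held 52.5% of the intergenic regions, against 52.8% of gene-body, 28.4% of promoter and 31.3% of all regions. A total of 280 regions were called in 2 libraries only, just inside the limit, with a median highest fold enrichment of 6.26 and a median width of 460.5 bp. The 1824 intergenic regions in 1 library, just outside it, had 4.22 and 256 bp. At the other end, 41 regions were called in all 8 libraries (5.93%, against 22.4% of all regions).

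Where a region was called in all 4 libraries of a line, its Rb signal was taller and wider with INX-315. Median summit height, as a multiple of the genome-wide mean, was 22.2 and 25.9 in the DMSO libraries of OVCAR-3 and 63.6 and 85.6 in the INX-315 libraries over the 78 constant regions with recovered heights. In Kuramochi it was 27.0 and 40.8 with DMSO and 59.3 and 76.4 with INX-315 over 72 regions. All INX-315 libraries lay above the DMSO libraries of their line, with a mean difference of 1.27 on the log2 scale (1.48 in OVCAR-3 and 1.06 in Kuramochi; two-sided exact permutation of treatment within lines, p = 0.0556, adjusted p = 0.0833 over 6 tests), and 0.0556 is the smallest p that the 36 arrangements allow. In 74 of 78 regions in OVCAR-3 (94.9%) and 59 of 72 in Kuramochi (81.9%), both INX-315 heights exceeded both DMSO heights. The shares were 88.2% and 82.8% at constant gene-body regions, and 99.0% and 96.7% at constant promoter regions. The median fold change per region was 2.83 in OVCAR-3 and 2.13 in Kuramochi at intergenic regions. It was 2.84 and 2.41 at constant gene-body regions, and 3.43 and 2.83 at constant promoter regions. Peaks at the same regions were wider by 0.64 on the log2 scale (exact permutation, p = 0.0556), from 482 to 857 bp in OVCAR-3 and from 509 to 736 bp in Kuramochi.

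Within a library, intergenic peaks resembled gene-body peaks and were weaker than promoter peaks. Median fold enrichment at intergenic regions was 5.40 and 5.54 with DMSO and 6.61 and 7.95 with INX-315 in OVCAR-3, and 5.91 and 5.92 against 6.83 and 6.10 in Kuramochi. Fold enrichment is the authors' ratio of summit fragments to the background around them. Differences were taken between the medians of a library and averaged over the 8 libraries. Median log2 fold enrichment differed from that of promoter regions by -0.50 (lower in 8 of 8 libraries, two-sided exact permutation by sign flips within libraries, p = 0.0078, adjusted p = 0.0156 over 4 tests). Median log2 width differed by -0.66 (lower in 8 of 8 libraries, exact permutation, p = 0.0078, adjusted p = 0.0156). Against gene-body regions the differences were 0.04 in fold enrichment (higher in 6 of 8 libraries; exact permutation, p = 0.109) and 0.06 in width (6 of 8; exact permutation, p = 0.0938).

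**Figure D3:**
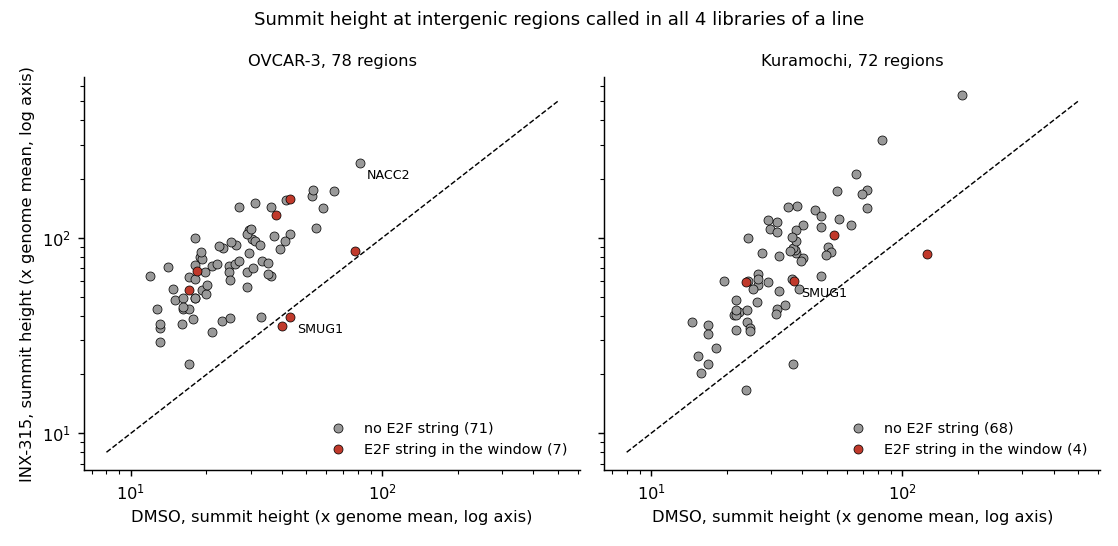
Summit height with INX-315 (y axis) against DMSO (x axis), geometric means of 2 libraries as multiples of the genome-wide mean on log axes, for intergenic regions called in all 4 libraries of a line; the dashed line marks equal heights. Most points lie above the line, whereas the region nearest to SMUG1 lies just below it in OVCAR-3 (-0.12 on the log2 scale).

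Among the 41 regions called in every library, 6 had the highest mean percentile of fold enrichment. That of NACC2, which encodes a transcriptional repressor (chr9:135990442-135991237, 28.7 kb from its start), had fold enrichments of 14.3 and 18.4 with DMSO and 28.2 and 58.0 with INX-315 in OVCAR-3. In Kuramochi it had 39.8 and 53.8 with DMSO and 97.5 and 68.5 with INX-315, the highest of any intergenic region. The groups did not overlap in either line. The same held for the regions nearest to ZNF648, a zinc finger gene (28.1 kb), and PKDCC, which encodes a secreted kinase (207 kb). It also held for those nearest to PTMA, which encodes prothymosin alpha (44.5 kb), and SLC27A3, a fatty acid transport gene (4.40 kb). Such separation was common: in height it was seen at 94.9% and 81.9% of constant intergenic regions of OVCAR-3 and Kuramochi, and at 99.0% and 96.7% of constant promoter regions.

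The sixth region lay nearest to CCNE1. This gene encodes cyclin E1, the partner of CDK2, and the region lies 23.2 kb downstream of its start (chr19:29844048-29845939). Fold enrichment there was 11.3 and 13.3 with DMSO and 42.2 and 59.2 with INX-315 in OVCAR-3, and 8.30 and 15.6 against 35.3 and 24.2 in Kuramochi, so the groups did not overlap. The local background at this region was 7.25 to 7.33 times the genome-wide mean in the 3 OVCAR-3 libraries where it could be recovered, and 2.59 to 2.64 times in Kuramochi. The Rb libraries of a line shared the IgG2a library of that line as control in peak calling, so these values are not independent within a line. The part of this background in the OVCAR-3 values was not tested, although fold enrichment divides by it.

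Of the 54 regions gained in both lines, 8 with the highest mean percentile lay nearest to DLX5, LRCOL1, CDC20B, TLR5, KIF1A, NARF, PSD2 and URM1. DLX5 is a homeobox gene of limb and skeletal development, and its region, 2.73 kb upstream of the start (chr7:97027246-97027817), had fold enrichments with INX-315 of 12.2 and 27.4 (OVCAR-3) and of 12.1 and 14.0 (Kuramochi). The LRCOL1 region (chr12:132597812-132599020) had 9.70 and 17.1 (OVCAR-3) and 20.6 and 12.6 (Kuramochi). Neither had a peak in any DMSO library. The other 6 ranged from 5.96 to 13.8. Their nearest genes include TLR5, a receptor for bacterial flagellin (51.2 kb), and KIF1A, a kinesin of neurons (8.12 kb).

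Gains in 1 line with no peak in the other numbered 111 in OVCAR-3 (16.1% of the 691, against 6.05% of all and 15.8% of gene-body regions) and 38 in Kuramochi (5.50%, against 2.53% and 7.95%). The strongest in OVCAR-3 lay 18.0 kb from RRP1, a gene of ribosomal RNA processing, with fold enrichments of 13.3 and 10.6, and 3.01 kb upstream of SOX3, a developmental transcription factor, with 9.93 and 11.8. In Kuramochi they lay 130 kb from LPCAT1, an enzyme of phospholipid synthesis, with 10.1 and 8.19, and 13.5 kb from ERVV-2 with 7.12 and 10.7. The third lay 5.97 kb from IFT27, a gene of ciliary transport, with 11.3 and 7.09. Whether these regions differ between the lines was not tested.

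The 5 regions lost in OVCAR-3 had fold enrichments from 4.01 to 8.03 in the DMSO libraries of that line. The medians of all intergenic regions called there were 5.40 and 5.54. The pair nearest to ZNF518B (chr4:10297843-10298585 and chr4:10302301-10303322, 159 and 154 kb from its start) had no peak in Kuramochi, and neither had the TRIM27 region. The regions nearest to MEGF9 and FAM110C had peaks in all 4 Kuramochi libraries, at 5.34 and 5.79 with DMSO and 11.2 and 11.2 with INX-315 for MEGF9, and were thus lost in OVCAR-3 only.

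**Figure D4:**
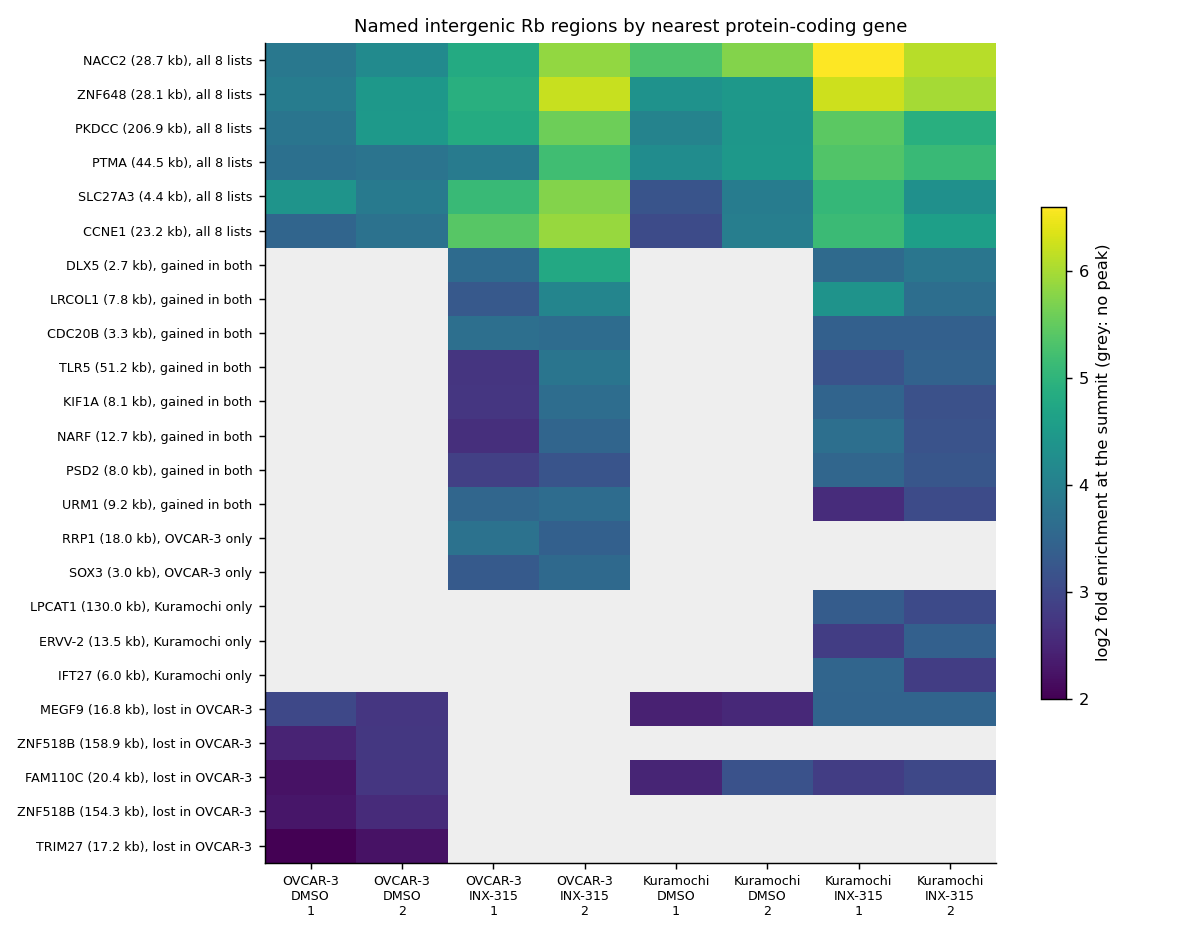
Fold enrichment at the summit (colour, log2 scale; grey where no peak was called) of named intergenic regions (rows, by nearest protein-coding gene and distance) in the 8 Rb libraries (columns). The 6 rows of regions called in all 8 lists, picked for high fold enrichment, have higher values in the INX-315 columns of both lines, from 14.3 and 18.4 to 28.2 and 58.0 for NACC2 in OVCAR-3.

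The intergenic regions were rich in CpG dinucleotides, the form of sequence found at many promoters. In the 200 bp around the strongest summit, they had a median GC content of 64% and 12 CpG, against 39% and 1 in all 5413991 windows of 200 bp tiled outside promoters and gene bodies. At least 10 CpG were present in 429 windows (62.1%), against 1.01% of tiled windows, 52.4% of gene-body and 90.9% of promoter regions. A GC content of at least 50% with an observed to expected CpG ratio of at least 0.6, the usual criteria of a CpG island, was met by 382 (55.3%), against 1.01% of tiled windows and 86.6% of promoter regions. The GC box GGGCGG, searched like all strings on both strands, was found in 44.9%, against 1.99% of tiled windows and 61.8% of promoter regions. The share with at least 10 CpG was 55.4% among regions in 2 libraries and 79.7% among the 123 in at least 6.

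E2F strings, the letters that E2F factors are known to bind, were present in 33 of the 691 windows (4.78%), a share close to gene-body (4.33%) and promoter regions (4.24%), and present in 0.192% of tiled windows. The share was 2.86% of the regions in 2 libraries and 8.13% of those in at least 6. Among windows with at least 10 CpG it was 3.96%, against 1.16% of tiled windows with as many, and among windows with fewer it was 6.11% (16 of 262), against 0.182%. The strings were not gathered at the summit, with a median distance of 56 bp, and 14 of 33 within 50 bp.

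Heights were also read at the regions with an E2F string, a choice made after the values were seen and given without a test. In OVCAR-3 the lowest height differences between INX-315 and DMSO at constant regions were those nearest to NRP2 and SMUG1 (-0.18 and -0.12 on the log2 scale), and each had a string. In Kuramochi the lowest was that nearest to SSTR5 (-0.69), without a string. Of the 7 constant regions of OVCAR-3 with a string, both INX-315 heights exceeded both DMSO heights in 4, against 70 of the 71 without one, and 2 of the 7 had a lower mean log2 height with INX-315, against 0 of the 71. In Kuramochi both INX-315 heights exceeded both DMSO heights in 2 of the 4 with a string and 57 of the 68 without one, and 1 and 2 respectively had a lower mean. The median height difference did not go the same way in both lines. In OVCAR-3 it was higher with a string, at 1.669 against 1.502 on the log2 scale. In Kuramochi it was lower, at 0.830 against 1.099. At the SMUG1 region, near a gene of base excision repair, fold enrichments were 16.3 and 13.0 with DMSO against 8.28 and 14.4 with INX-315 in OVCAR-3, and 7.84 and 15.9 against 14.6 and 10.4 in Kuramochi, so that its groups overlapped in both lines. The string-bearing regions nearest to CTDSP2 (9.54 and 10.9 against 22.9 and 35.8 in OVCAR-3) and SP8 (4.70 and 6.37 against 18.9 and 17.8 in Kuramochi) lay above both DMSO values in both INX-315 libraries. At constant gene-body regions of OVCAR-3, both INX-315 heights exceeded both DMSO heights in 4 of 4 with the string and 71 of 81 without. The counts in Kuramochi were 2 of 3 and 80 of 96. Median differences at these gene-body regions were 1.349 and 1.517 (OVCAR-3), and 1.030 and 1.292 (Kuramochi). At constant promoter regions of OVCAR-3, the median height difference on the log2 scale was 1.62 with the string and 1.79 without it. In Kuramochi it was 1.47 and 1.50.

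Strings of other factors gave a mixed picture. A CTCF core string (AGGGGGCGC, AGGGGGCAC, AGGTGGCGC, AGGTGGCAC, AGAGGGCGC or AGAGGGCAC) was in 40 windows (5.79%), against 3.12% of gene-body, 4.38% of promoter regions and 0.480% of tiled windows. Among windows with at least 10 CpG the share was 7.93%, against 1.94% of such tiled windows. The AP-1 string TGANTCA was in 37 (5.35%), below the 6.19% of tiled windows, but in 29 of the 262 windows with fewer than 10 CpG (11.1%, against 6.22%). The CHR string TTTGAA of cell cycle genes was in 6.22%, against 24.4% of tiled windows, which are richer in A and T, and the ETS string CCGGAAGT in 0.579%, against 2.32% of promoter regions. The TEAD string ACATTCC (3.47%, against 3.91% of tiled windows), the CCAAT box (16.1%, against 28.1%), the NRF1 string GCGCATGCG (0.434%, against 0.0079%) and the YY1 string AAGATGGCG (0%, against 0.0521%) were less frequent or about as frequent as in tiled windows, apart from NRF1.

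**Figure D5:**
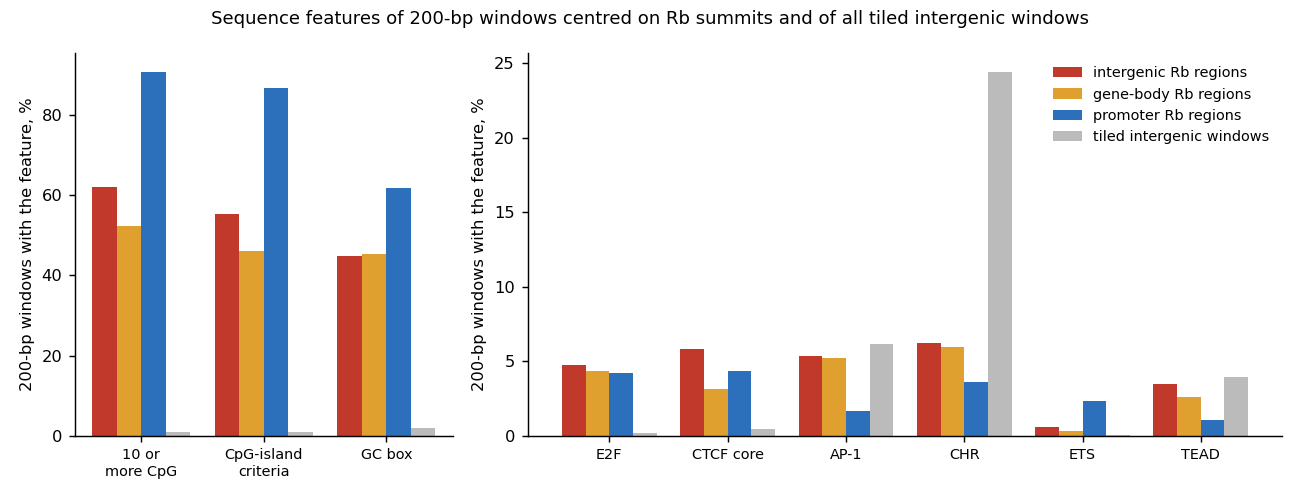
Share of 200-bp windows (y axis, %) with each sequence feature for intergenic, gene-body and promoter Rb regions and for all tiled intergenic windows; the panels differ in scale. Windows with 10 or more CpG make up 62.1% of intergenic Rb regions and 1.01% of tiled windows, and E2F strings are found in 4.78% and 0.192%.

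Although outside annotated promoters, the regions lay closer to genes than intergenic sequence in general. The median distance from the summit to any transcript start was 9883 bp, against 29965 bp for tiled windows, and to a protein-coding start 21.4 kb, against 134 kb. Within 5 kb of a start lay 168 regions, between 5 and 20 kb 352, between 20 and 100 kb 159, and farther away 12. The nearest promoter with an Rb region was a median of 35.5 kb away, against 277 kb for tiled windows, and 119 regions (17.2%, against 3.83%) had one within 10 kb. Of the 589 regions within 100 kb of a protein-coding start, 429 (72.8%) had as nearest gene one whose promoter held an Rb region, against 59.3% of such tiled windows and 77.1% of gene-body regions. They lay upstream of the nearest protein-coding start in 52.5% of cases, against 54.6% of tiled windows.

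By chromosome, the number per Mb of intergenic sequence was highest on chromosomes 19 (3.06, 49 regions) and 17 (2.27, 55 regions) and lowest on X (0.173, 14 regions). The windows of 1 Mb with the most regions held 6 each, at chr17:49000001-50000000 near DLX3, GNGT2 and TAC4, and at chr2:231000001-232000000 near PTMA and TEX44. The next 4 windows held 5 each. Of regions called in at least 6 libraries, the farthest from any transcript start lay 116 kb from one, that of RNA5SP199 (chr5:155727774-155730150). The nearest protein-coding start, that of SGCD, was 141 kb away. This region was also the widest, at 2377 bp. Its fold enrichments were 5.79 and 5.89 with DMSO and 16.1 and 29.6 with INX-315 in OVCAR-3, while Kuramochi had none and 5.53 against 6.30 and 4.69.

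The genes nearest to the regions were compared with lists of genes, counting a region when its nearest protein-coding start was within 100 kb. Of the 148 developmental homeobox, paired-box and T-box genes, 15 were nearest to 16 regions (2.32% of the 691, against 0.633% of tiled windows and 2.31% of gene-body regions). Examples were BARHL2, a homeobox gene of neural development, with 8.41 and 8.31 against 16.3 and 36.6 in OVCAR-3, and HOXA7, with 9.69 and 5.07 against 8.54 and 11.5 in Kuramochi, where the groups overlapped. In OVCAR-3 the HOXA7 region had a peak with INX-315 alone, at 7.42 and 13.3. Of the 77 other developmental transcription factor genes, 12 were nearest to 13 regions (1.88%, against 0.474% of tiled windows and 1.31% of gene-body regions). The one nearest to FOXL2, a factor of ovarian granulosa cells, had 6.76 and 13.4 against 30.6 and 41.5 in OVCAR-3 and 9.80 and 11.7 against 14.6 and 13.5 in Kuramochi, and the one nearest to HES1, a Notch target, had 7.15 and 7.05 against 12.0 and 21.3 in OVCAR-3.

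Few regions were nearest to E2F-regulated cell cycle genes, 3 of the 691 (0.434%, against 0.0862% of tiled windows and 0.101% of gene-body regions) over 56 genes. Besides CCNE1, MYBL2, which encodes the cell cycle factor B-MYB, had a region 9.30 kb upstream with 7.16 and 5.93 against 7.06 and 24.7 in OVCAR-3, where the groups overlapped. In Kuramochi the MYBL2 region had 9.70 in the second DMSO library alone, against 28.9 and 15.2 with INX-315. Oestrogen response genes, 49 of 50 of which matched a symbol, were nearest to 5 (0.724%, against 0.198% of tiled windows and 0.805% of gene-body regions), ELOVL5, a fatty acid elongase gene, and FOXC1, a forkhead factor, among them. Serous ovarian lineage factors were nearest to 6 (0.868%, against 0.0962% and 0.805%), with MECOM gained in both lines (OVCAR-3 7.69 and 19.3, Kuramochi 6.10 and 3.86) and EMX2 called in 6 libraries at 4.23 to 8.34. AP-1 genes were nearest to 1, by JUND (0.145%, against 0.0380% and 0.101%), and none was nearest to the 30 genes of the Rb pathway, against 0.0588% and 0.101%.

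Some of the intergenic regions overlapped genes of RefSeq, although they overlap none of GENCODE v44. Whether these genes are absent from GENCODE v44 or have other ends there was not tested. RefSeq genes overlapped 156 of the 691 (22.6%, against 12.7% of tiled windows, which are shorter), as lncRNA genes in 104 and protein-coding genes in 26. A tRNA gene was present in 21 regions (3.04%), a feature looked for after the values were seen, against 0.805% of gene-body and 0.318% of promoter regions. In the windows of 200 bp, which are of equal length, it was 3 of the 691 (0.434%). The shares were 0.201% of gene-body regions, 0.0233% of promoter regions and 0.00508% of tiled windows. These 21 genes were 10.5% of the 200 tRNA genes outside promoters and gene bodies. In every Rb library, tRNA genes at promoters fell in a peak more often than these 200. The counts were 35 of 120 against 19 of 200 in the second INX-315 library of OVCAR-3. In the first DMSO library of Kuramochi they were 5 of 120 against 2 of 200.

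The regions with a tRNA gene had a peak in 4 and 11 cases in the DMSO libraries and in 16 and 19 in the INX-315 libraries of OVCAR-3, and in 4 and 11 against 17 and 16 in Kuramochi. Of the 21, 17 were called in both lines, a pattern seen in 64.4% of the 691 and 86.4% of all regions. Each line gained 5 of the 21. Among regions with a peak in OVCAR-3, the gained share was 39.2% for intergenic and 29.9% for all regions. For Kuramochi the same shares were 31.3% and 25.9%. Whether regions with a tRNA gene depart from these shares was not tested. Regions nearest to KPNA2, with the arginine tRNA gene TRR-CCG2-1, and PER1, with TRS-CGA1-1 shown above, were called in all 8 libraries. The KPNA2 region had 12.4 and 7.80 against 16.5 and 19.4 in OVCAR-3 and 16.4 and 20.8 against 37.2 and 26.0 in Kuramochi, and the PER1 region 4.81 and 4.70 against 6.71 and 12.9 and 6.36 and 9.35 against 22.9 and 12.4. Neither overlapped between treatments, and in height most constant intergenic regions did not either. The summits lay a median of 255 bp from the tRNA gene and within 150 bp in 6 regions, so most were beside the gene and not on it. The B box string GTTCGANTC of the internal promoter was in 3 of the 691 summit windows, in the regions nearest to PER1, ZNF184 and TRIM27, each of which held a tRNA gene. tRNA genes occur in many near-identical copies, and how reads with several matches were placed was not given in the sources used here.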

How the data were processed

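Rb CUT&RUN peak lists of 8 libraries and 2 IgG2a libraries were used, grouped by line, treatment and replicate number as labelled. The study's methods give trimming with BBDuk, alignment to hg38 with Bowtie2 2.3.4.1, removal of blacklisted and mitochondrial reads, retention of duplicates, and peak calling per library with MACS2 2.2.7.1 (paired-end mode, q of 0.05, IgG2a of the line as control). The deposited lists hold, per peak, a fold enrichment (a linear ratio), a −log10 p-value, a −log10 q-value and an integer score, all written by the authors' peak caller. They hold no read totals.

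Fragments at a summit and the local background were recovered from fold enrichment and p-value, taken as (fragments + 1) / (background + 1) and as a Poisson tail, within a relative tolerance of 3e-05; the lowest background of a library served as its genome-wide mean. Peaks at which no single whole number met the tolerance have no height, nor have those with p-values too small to fit (0 to 92 per Rb library), which are among the strongest. The region nearest to CCNE1 had no height in the second INX-315 library of OVCAR-3, and that nearest to NACC2 none in the first of Kuramochi. Each is thus absent from the heights of that line. Last peaks ended inside the reference length on 23 of 23 chromosomes.

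Regions were built with Python 3.11.15, numpy 2.4.6 and pandas 2.3.3, and sequence was read from hg38 with pysam 0.24.0. Nearest genes are by distance from the strongest summit (GENCODE v44; tRNA genes from RefSeq, GRCh38.p14). Treatment and line were compared by exact permutation of labels within strata (36 arrangements), and classes of region by sign flips over 8 within-library differences (256 arrangements, smallest p 0.0078), with Benjamini-Hochberg adjustment over 6 and 4 tests. Of the 6, p-values are printed for height and width alone, since the numbers and shares called rest on the calls that chose the regions. The functions were tested on simulated data. The members and gene lists were chosen with earlier results of these data known. Named regions are those highest in mean within-library percentile of fold enrichment in each pattern of calls (6 in all 8 libraries, 8 gained in both lines, 3 gained in 1 line alone, all 5 lost), the farthest from a start (of at least 6 libraries), the widest, the best of each gene list, and those with a B box string. Some of those that this rule picks, on chromosome 8 among them, are not reported here. Regions with a tRNA gene and the heights at E2F strings were added after the values were seen. Shares of soft-masked bases were not computed because the reference used has no masking.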

Additional observations from a re-analysis of the deposited data

How the results depend on the processing

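Most of the 13 results (10 differences and 3 counts of gains) kept their direction and side of the threshold when peaks were filtered, merged or assigned to genes differently or when 1 library was left out. The exceptions follow, and where no reason is given, the cause was not tested. With lists of equal length, the number of intergenic regions called changed sign to -0.35 (log2), their share to -0.45 percentage points, the number per gene-body region to 0.10, OVCAR-3 against Kuramochi to -0.00774 and fold enrichment against gene-body regions to -0.00657, while gains fell to 7 in OVCAR-3, 6 in Kuramochi and 0 shared. With only peaks at a −log10 q-value of at least 3, the number per gene-body region turned to 0.0228, and fold enrichment and width against gene-body regions passed the threshold at 0.0375 (exact permutation, adjusted p = 0.0312) and 0.0575 (adjusted p = 0.0208). With promoters of 5000 bp upstream to 1000 bp downstream they did so at 0.0471 (exact permutation, adjusted p = 0.0208) and 0.0564 (adjusted p = 0.0469). With regions in at least 3 libraries, gains in OVCAR-3 numbered 130, since that rule removes its gains with no peak in Kuramochi.

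Counts of gains can only stay or rise when a library is left out, since fewer libraries must meet the rule. Leaving out 1 library at a time gave ranges of 255 to 373 for gains in OVCAR-3 (highest without the first INX-315 library), 172 to 262 in Kuramochi (highest without the second INX-315 library) and 54 to 88 for shared gains. It gave -0.0271 to 0.559 for OVCAR-3 against Kuramochi (-0.0271 without the first DMSO library of Kuramochi), 0.0334 to 0.0574 for fold enrichment and 0.0413 to 0.0769 for width against gene-body regions, the latter pair passing the threshold without the first DMSO library of OVCAR-3 (exact permutation, adjusted p = 0.0469 for both). For the numbers called, the range was 1.40 to 1.99.

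Region by region, same-numbered libraries deviated together with correlations of -0.03 (OVCAR-3) and 0.04 (Kuramochi) in presence over all regions. Such correlations cannot show a shift of a whole library. In OVCAR-3 the second library held more peaks than the first with DMSO (7984 against 6162) and with INX-315 (17281 against 13031). In Kuramochi it held more with DMSO (8794 against 5221) and fewer with INX-315 (13395 against 15244). Whether the numbers mark pairs is thus not known. With a replicate block, which allows 16 arrangements and a smallest p of 0.125, the differences stayed at 1.69, 1.41, -0.07, 1.27 and 0.64 (numbers called, share, per gene-body region, height and width), and the values were the same with the Kuramochi numbers crossed, an alternative chosen after seeing the data. No test can pass the threshold under either block.

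The lowest summits held 3 to 5 fragments, which limits single calls, and the absence of a peak does not show the absence of Rb. The peak lists carry no spike-in scale, so that heights are relative to each library's own background.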

Other observations

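Wide regions and regions remote from any start were also read one by one. After the region nearest to SGCD, the widest were those nearest to COPZ2, a gene of the coatomer coat (chr17:48023268-48025637, 2370 bp), and NAV2, a neuron navigator gene (chr11:19344773-19346846, 2074 bp). The COPZ2 region had fold enrichments of 7.80 and 4.70 with DMSO and 14.0 and 24.4 with INX-315 in OVCAR-3, and in Kuramochi a peak only with INX-315, at 8.86 and 4.73. The NAV2 region had 4.84 in the second DMSO library and 7.92 and 10.8 with INX-315 in OVCAR-3, and 5.80 against 9.97 and 5.76 in Kuramochi. FGF18, which encodes a fibroblast growth factor, was nearest to a region 75.4 kb from the start of any transcript, called in 7 libraries, at 5.58 with DMSO and 10.9 and 11.6 with INX-315 in OVCAR-3, and at 3.90 and 8.90 against 7.96 and 6.64 in Kuramochi, where the groups overlapped.

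Of the 691 regions, 51 (7.38%) had another intergenic region within 10 kb. The region nearest to ELOVL5 had fold enrichments of 4.87 and 6.66 with DMSO and 9.69 and 19.0 with INX-315 in OVCAR-3, and 5.69 and 5.76 with INX-315 alone in Kuramochi. The FOXC1 region, 54.7 kb from the start of the gene, had a peak with INX-315 alone, at 6.78 and 8.94 in OVCAR-3 and 18.6 and 5.38 in Kuramochi.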
